A study of Mus musculus with 7 samples.

Results

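Genes of the choroid plexus were followed through 7 RNA-seq libraries of mouse cerebellum. They are 31 genes, taken by symbol from a list of genes known for this tissue, out of 24421 gene symbols in the count files, and all 31 were present. Their levels set the CicKO library numbered 3 and the control library numbered 3 apart from the other 5 libraries, and those libraries are described first against the others of their own genotype. All mice were of the C57BL/6 strain. The 4 CicKO libraries came from mice labelled En1-Cre; Cicflox/flox, in which both copies of Cic, the gene for the transcriptional repressor capicua, can be removed by a Cre recombinase under the control of En1, a gene active in the embryonic midbrain and hindbrain. The 3 control libraries are titled wild type, but their genotype is given as Cicflox/+ with no Cre named, so every mouse carried at least 1 floxed Cic allele. Age, sex and litter are not in the labels, and the labels do not say that each library is a separate animal, so p-values measure only the spread between these libraries.

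The choroid plexus is a folded sheet of epithelium that hangs into the brain ventricles and secretes the cerebrospinal fluid. In the hindbrain it lies in the roof of the fourth ventricle, directly beneath the cerebellum. Its cells release carrier proteins and growth factors into the fluid, move ions, bicarbonate and water with channels and transporters, take up folate and metals from the blood, and are sealed by tight junctions. It is not a part of the cerebellum, and a cerebellar dissection can include or leave out pieces of it.

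Each library held 102653765 to 121285349 reads counted to genes, and 3 counts correspond to 0.0247 to 0.0292 counts per 1000000 (CPM). Levels are given below as CPM scaled by the trimmed mean of M-values (TMM), which does not correct for gene length. Cic, the targeted gene, had 147, 146, 144 and 147 CPM in CicKO libraries 1 to 4, against 216, 257 and 223 CPM in controls 1 to 3 (edgeR quasi-likelihood test, log2 fold change -0.66, SE 0.062, adjusted p = 0.00256). The groups did not overlap. Markers of the labelled tissue were abundant in every library: Cbln3, of granule neurons, had 1604 to 1991 CPM in CicKO and 1612 to 1802 CPM in control libraries, and the Purkinje cell gene Calb1 had 1040 to 1615 CPM in CicKO and 1200 to 1303 CPM in control libraries.

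Regulatory sequence is shown for 4 members, as examples of a potassium channel, a transcription factor, a hormone co-receptor and a channel subunit that were all high in both libraries numbered 3. Promoter windows of 250 bases before a transcription start, from RefSeq on GRCm38.p6, were at hand for 24 of the 31 genes, 35 windows in all. They were searched on both strands for the 6 letters TAATCC, a core bound by OTX-type homeodomain proteins, and for CAATTA, a core bound by MSX-type ones, since Otx2 and Msx1 are themselves members. The OTX-type letters were in 1 of the 35 windows, against 6.25% of all 32851 promoters in the table, and the MSX-type letters were in 5 of 35, against 7.17% of all promoters. Those 5 windows belong to 4 of the 24 genes, Cab39l, Kcnj13, Otx2 and Tmem72, and the OTX-type match is also in an Otx2 window. Windows of the same gene are not independent, so these shares are no test of an excess. A match describes letters only and is neither a binding site nor a cause. The windows below are chr1:87394730-87394979 on the minus strand for Kcnj13, chr14:48667645-48667894 on the minus strand for Otx2, chr5:150952357-150952606 on the plus strand for Kl and chr16:92292139-92292388 on the plus strand for Kcne2, each ending at the base before the start. Capitals mark the MSX-type letters, which Kcnj13 carries on its reverse strand as TAATTG, beginning 98 bases before the start, and Otx2 as CAATTA, beginning 133 bases before one of its starts. The Kl and Kcne2 windows hold neither motif.
Kcnj13: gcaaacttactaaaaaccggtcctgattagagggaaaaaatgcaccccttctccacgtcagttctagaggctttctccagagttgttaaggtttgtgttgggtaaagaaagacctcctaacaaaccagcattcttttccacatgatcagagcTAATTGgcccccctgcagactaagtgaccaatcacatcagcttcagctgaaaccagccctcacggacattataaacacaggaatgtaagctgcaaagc
Otx2: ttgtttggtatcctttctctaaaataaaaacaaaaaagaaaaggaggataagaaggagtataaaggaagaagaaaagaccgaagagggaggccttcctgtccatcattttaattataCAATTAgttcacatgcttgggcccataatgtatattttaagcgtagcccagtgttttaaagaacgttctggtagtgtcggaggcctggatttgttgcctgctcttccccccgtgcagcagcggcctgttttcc
Kl: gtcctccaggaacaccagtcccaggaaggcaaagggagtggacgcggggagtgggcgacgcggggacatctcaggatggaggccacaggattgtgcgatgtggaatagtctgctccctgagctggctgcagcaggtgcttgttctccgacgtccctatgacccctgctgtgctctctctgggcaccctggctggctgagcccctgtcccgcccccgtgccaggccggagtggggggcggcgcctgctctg
Kcne2: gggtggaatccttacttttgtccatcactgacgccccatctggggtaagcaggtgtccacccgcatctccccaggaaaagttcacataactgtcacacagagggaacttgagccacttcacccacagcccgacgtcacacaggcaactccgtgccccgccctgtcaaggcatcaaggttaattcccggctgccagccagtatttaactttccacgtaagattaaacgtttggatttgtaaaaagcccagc

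All 31 genes were higher in CicKO 3 than in CicKO 1, 2 and 4 and higher in control 3 than in controls 1 and 2, and for all 31 the libraries numbered 3 stood above each of the other 5. The same order was found for 10.6% of all 16905 genes tested. In 26 of the 31, both libraries numbered 3 were at least 2-fold above the others of their genotype, against 2.06% of all tested genes. The 5 below that size in at least 1 genotype were Igf2, Slc31a1, Spint2, Rdh5 and Cab39l. Nearest to the limit were Cab39l, just under it at 1.996-fold in control 3, and Otx2, just over it at 2.33-fold in control 3. The median ratio over the 31 genes was 26.3 in CicKO 3, taken against the median of CicKO 1, 2 and 4, and 14.7 in control 3, taken against the mean of controls 1 and 2. Over all tested genes the medians were 0.996 and 0.992. The libraries were singled out with these levels known, so the ratios are a description with no test. In bulk tissue, fewer cells of a type and less RNA per cell cannot be told apart.

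**Figure D1:**
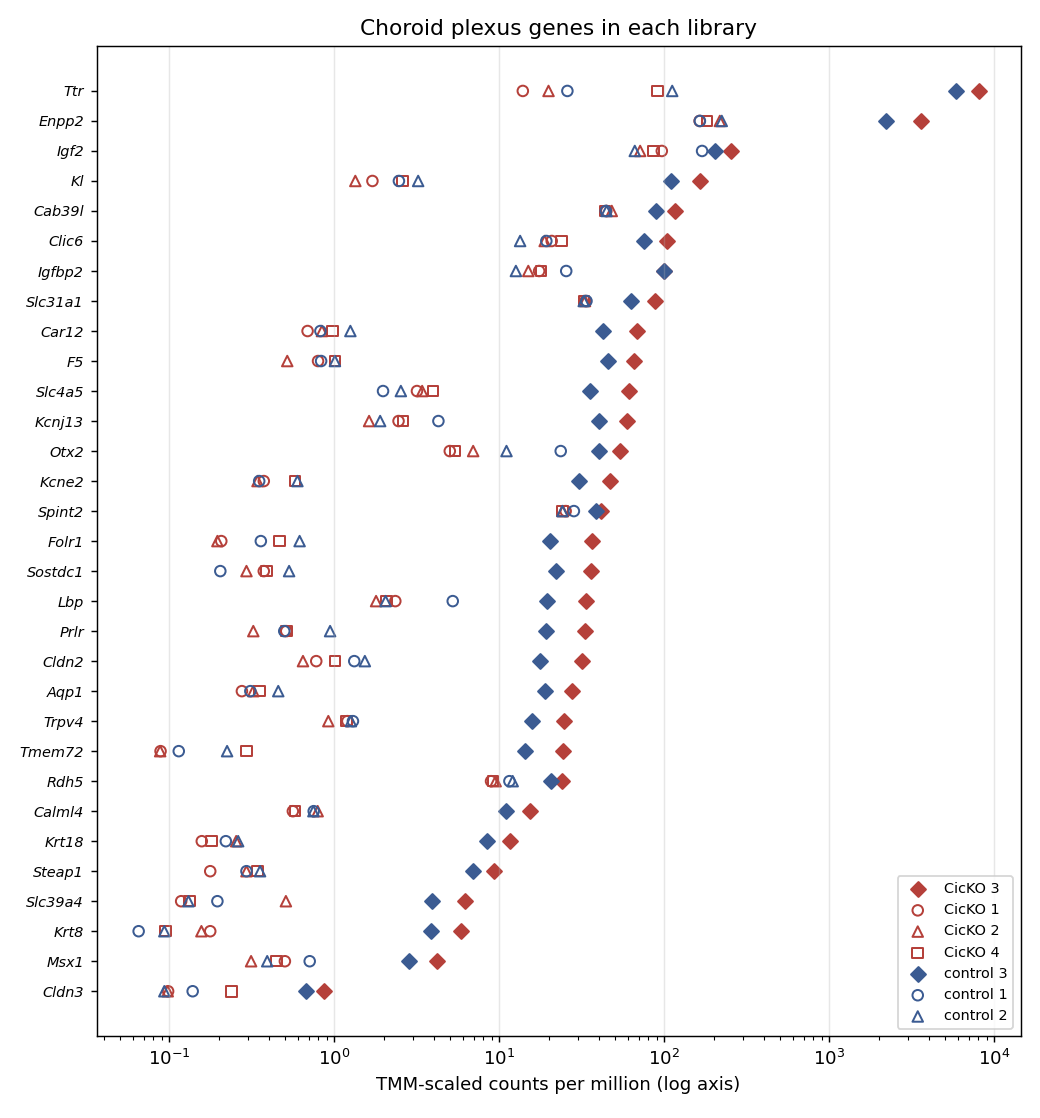
Level of each of the 31 choroid plexus genes in each of the 7 libraries, as TMM-scaled CPM on a log axis, CicKO in red and control in blue. Filled diamonds are the libraries numbered 3, which lie to the right of all open symbols in every row, from Ttr at 8006 CPM in CicKO 3 and 5814 CPM in control 3 to Cldn3 at 0.871 and 0.675 CPM.

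The largest signal came from Ttr, which encodes transthyretin, the carrier of thyroid hormone and of the retinol-binding protein that the epithelium secretes into the fluid. Ttr had 13.9, 19.9, 8006 and 91.2 CPM in CicKO libraries 1 to 4, against 25.8, 112 and 5814 CPM in controls 1 to 3. CicKO 3 was 403-fold above the median of the other CicKO libraries and control 3 was 84.6-fold above the mean of the other controls. In raw reads, Ttr took 910497 counts in CicKO 3 and 663324 in control 3, and 1410 to 11943 counts in the other 5.

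Among the secreted proteins, Enpp2 was the most abundant after Ttr in the libraries numbered 3, and in each of the other 5 it stood above Ttr. It encodes autotaxin, the enzyme that makes lysophosphatidic acid, and lies at chr15:54838901-54952892 (GRCm38, as all positions here). It had 164, 217, 3603 and 181 CPM in CicKO libraries 1 to 4, against 164, 223 and 2192 CPM in controls 1 to 3. Unlike Ttr, Enpp2 was abundant in every library, and the highest of the other 5 was 1.36-fold above the lowest. Kl encodes klotho, the co-receptor for the hormone FGF23, which is also shed into the fluid. It had 1.70, 1.34, 165 and 2.59 CPM in CicKO libraries 1 to 4, against 2.46, 3.22 and 110 CPM in controls 1 to 3, and lies at chr5:150952607-150993817.

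Sostdc1, which encodes an antagonist of BMP and Wnt signals, was 95.5-fold above the others in CicKO 3 and 60.1-fold in control 3. For F5, coagulation factor V, the ratios were 81.8 in CicKO 3 and 49.8 in control 3. For Lbp, which binds bacterial lipopolysaccharide, they were 16.1 in CicKO 3 and 5.39 in control 3.
The growth factor gene Igf2 and the gene of its binding protein Igfbp2 had far smaller ratios. Igf2 had 96.5, 71.3, 252 and 85.7 CPM in CicKO libraries 1 to 4, against 169, 66.2 and 204 CPM in controls 1 to 3. Control 1 came close to control 3 for Igf2, and the libraries numbered 3 still did not overlap with the rest. Igfbp2 had 17.4, 14.98, 99.4 and 17.8 CPM in CicKO libraries, against 25.4, 12.6 and 99.4 CPM in controls, so CicKO 3 and control 3 were alike for this gene. In GENCODE M21, 62.8% of the Igf2 exon bases are shared with another gene model of the same strand. That model is not among the counted gene symbols, and whether the overlap affected the Igf2 counts was not tested.

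The receptor genes had low levels outside the libraries numbered 3. Folr1, the folate receptor that carries folate across the epithelium into the fluid, had 0.207, 0.196, 36.6 and 0.466 CPM in CicKO libraries 1 to 4, against 0.359, 0.617 and 20.2 CPM in controls 1 to 3. The ratio was 177 in CicKO 3 and 41.3 in control 3, and the gene lies at chr7:101858331-101870788. Prlr, the prolactin receptor, had ratios of 64.3 in CicKO 3 and 26.8 in control 3. The 20 Folr1 counts of CicKO 2, the lowest library, against 4164 counts in CicKO 3 show the depth behind these values.

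Channels and transporters of the fluid-secreting machinery followed the same order. Aqp1, the apical water channel, encoded at chr6:55336432-55348555, had 0.276, 0.323, 27.7 and 0.352 CPM in CicKO libraries 1 to 4, against 0.310, 0.458 and 18.9 CPM in controls 1 to 3. Kcne2, an accessory subunit of potassium channels, had 0.374, 0.343, 47.1 and 0.580 CPM in CicKO libraries, against 0.351, 0.598 and 30.5 CPM in controls, and its promoter window is printed above. Kcnj13, the inward rectifier Kir7.1, had 2.45, 1.63, 59.1 and 2.61 CPM in CicKO libraries, against 4.28, 1.90 and 40.5 CPM in controls.
In all 3 genes the libraries numbered 3 were more than 10-fold above the others of their genotype. Kcnj13 lies on the opposite strand of Gigyf2 and shares 49.1% of its exon bases with it, and the library kit does not mark strand, so reads of the pair cannot be told apart there. Clic6, a chloride intracellular channel protein, was 5.01-fold above the others in CicKO 3 and 4.59-fold in control 3. The osmotically sensitive cation channel gene Trpv4 was 20.8-fold above in CicKO 3 and 12.4-fold in control 3.

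Slc4a5, the sodium bicarbonate cotransporter NBCe2, had 3.17, 3.41, 61.4 and 3.96 CPM in CicKO libraries 1 to 4, against 1.97, 2.53 and 35.3 CPM in controls 1 to 3. CicKO 1, 2 and 4 all stood above controls 1 and 2, an order found for 2 of the 31 members with Krt8 counted, against 15.6% of all tested genes. The opposite order held for 4 members, Trpv4, Cldn2, Otx2 and Rdh5, against 17.5% of all tested genes. Slc4a5 lies at chr6:83219828-83304945. Car12, a membrane-bound carbonic anhydrase that feeds bicarbonate transport, had ratios of 80.9 in CicKO 3 and 41.0 in control 3.
The metal-handling genes differed among themselves. Slc31a1, the copper importer, had 33.3, 33.0, 87.3 and 32.6 CPM in CicKO libraries, against 33.7, 32.5 and 62.5 CPM in controls. Its other 5 libraries lay within 1.04-fold of each other. Slc39a4, a zinc importer, had ratios of 46.3 in CicKO 3 and 24.05 in control 3, and Steap1, of a family of metal reductases, had 31.7 in CicKO 3 and 21.3 in control 3.

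The junction and keratin genes mark the epithelium as a sealed sheet. Cldn2, the claudin that forms a cation pore in leaky tight junctions, encoded at chrX:139800828-139811386, had 0.778, 0.646, 31.5 and 1.01 CPM in CicKO libraries 1 to 4, against 1.32, 1.53 and 17.7 CPM in controls 1 to 3. Cldn3 was the least abundant member. It had 10, 10, 99 and 25 counts in CicKO libraries 1 to 4, against 17, 10 and 77 counts in controls 1 to 3, and its ratios were 8.84 in CicKO 3 and 5.82 in control 3. Krt8 and Krt18 encode the keratin pair of simple epithelia. Krt8 had ratios of 37.3 in CicKO 3 and 48.5 in control 3, and was the only member with the smaller ratio in CicKO 3. Krt18 had ratios of 64.4 in CicKO 3 and 34.7 in control 3. Spint2, an inhibitor of serine proteases, had the smallest ratios of the 31, at 1.70 in CicKO 3 and 1.48 in control 3, over a level of 24.1 to 28.3 CPM in the other 5.

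Otx2 encodes a homeodomain factor needed for choroid plexus development. It had 5.01, 6.94, 53.5 and 5.40 CPM in CicKO libraries 1 to 4, against 23.6, 11.1 and 40.3 CPM in controls 1 to 3. Here the other 5 libraries were themselves far apart, with CicKO 1 lowest, control 1 highest and a 4.70-fold range. The gene lies at chr14:48657677-48673819. Msx1, a homeobox gene of the dorsal midline, had ratios of 9.33 in CicKO 3 and 5.15 in control 3.
Of the remaining members, Calml4, a calmodulin-like protein of microvilli, was 26.3-fold above in CicKO 3 and 14.7-fold in control 3. Tmem72, a transmembrane protein, had 9, 9, 2751 and 31 counts in CicKO libraries 1 to 4, against 14, 24 and 1643 counts in controls 1 to 3, and its ratios were 273 in CicKO 3 and 85.1 in control 3. Cab39l, a scaffold of the LKB1 kinase in human cells, was 2.59-fold above in CicKO 3 and 1.996-fold in control 3. Rdh5, a retinol dehydrogenase, was 2.61-fold above in CicKO 3 and 1.75-fold in control 3, and 25.6% of its exon bases are shared with Bloc1s1 on the same strand, so its level is uncertain.

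Divided by exon length, taken as the exon bases of all annotated transcripts of a gene merged, the order of the members was steep. Ttr had 6751 CPM per kilobase in CicKO 3 and 4902 CPM per kilobase in control 3, and Enpp2, next in order, had 624 and 379 CPM per kilobase in the same libraries. Igfbp2 followed with 53.8 CPM per kilobase in each. Next came Kcnj13 in CicKO 3, with 46.5 CPM per kilobase, ahead of Igf2 with 44.0, while in control 3 Kcnj13 had 31.9 and stood below Igf2 with 35.6. Both genes share exon bases with other gene models, as given above. At the low end Tmem72 had 1.41, Msx1 1.35 and Cldn3 0.691 CPM per kilobase in CicKO 3. Tmem72 has 17177 merged exon bases, more than any other member, and the length of the transcripts in use was not measured. Its low place therefore depends on the annotation. In the other 5 libraries Enpp2 had the highest median of these genes, 31.3 CPM per kilobase, above the 21.8 CPM per kilobase of Ttr. With 1 library of a genotype numbered 3, neighbours in this order have no spread to be judged by.

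CicKO 3 was above control 3 for all 31 genes. The ratio of the CicKO 3 level to the control 3 level ran from 1.00 for Igfbp2 to 1.82 for Folr1 with a median of 1.47, against a median of 1.00 over all tested genes. When the level of the other libraries of the same genotype was subtracted first, the ratio of what remained had a median of 1.60 and ran from 1.02 for Igfbp2 to 2.09 for Otx2. The summed level of the 31 genes was 446, 479, 13152 and 535 CPM in CicKO libraries 1 to 4, against 568, 571 and 9126 CPM in controls 1 to 3. With a library on each side, the difference between CicKO 3 and control 3 has no replicate check.

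**Figure D2:**
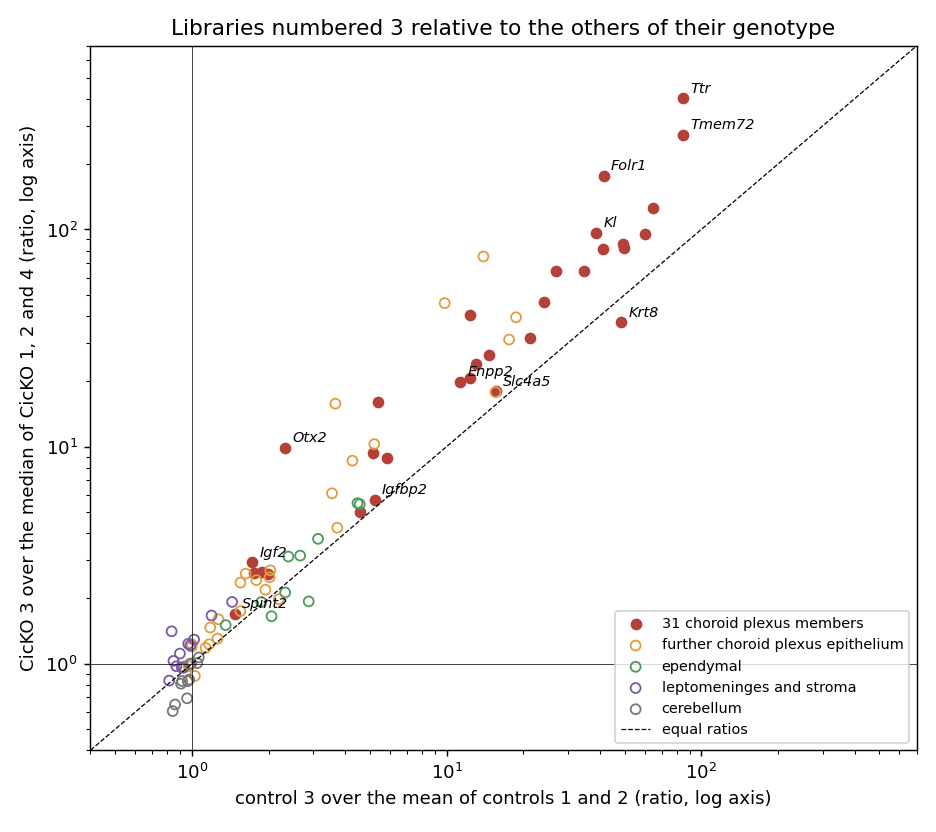
Ratio of CicKO 3 to the median of CicKO 1, 2 and 4 (vertical, log axis) and of control 3 to the mean of controls 1 and 2 (horizontal, log axis), for each gene of 5 lists. The 31 choroid plexus genes (red) lie up and to the right, from Spint2, at 1.70 for CicKO 3 and 1.48 for control 3, to Ttr, at 403 for CicKO 3 and 84.6 for control 3, and the cerebellar and leptomeningeal genes lie around 1.

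The remaining 5 libraries were not alike either. CicKO 1 was the highest of them for 1 of the 31 genes, CicKO 2 for 3, CicKO 4 for 4, control 1 for 9 and control 2 for 14. The lowest was CicKO 2 for 11 genes and CicKO 1 for 10. No share over all tested genes is at hand to judge these counts by. Ttr separated CicKO 4 and control 2, with 91.2 and 112 CPM, from CicKO 1, CicKO 2 and control 1, with 13.9 to 25.8 CPM, an 8.04-fold range. Tmem72 and Folr1 were also highest in CicKO 4 and control 2 among these libraries. Otx2, Lbp, Kcnj13, Igf2, Igfbp2 and Msx1 were instead highest in control 1. In control 1 the leptomeningeal and stromal list was also high: 10 of its 12 genes were highest there of all 7 libraries. That count has no share over all tested genes beside it. The summed level of the list was 1628, 1379, 1760 and 1660 CPM in CicKO libraries 1 to 4, against 2884, 1112 and 1823 CPM in controls 1 to 3. Its part in the control 1 values of Igf2, which meninges also express, was not tested.

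**Figure D3:**
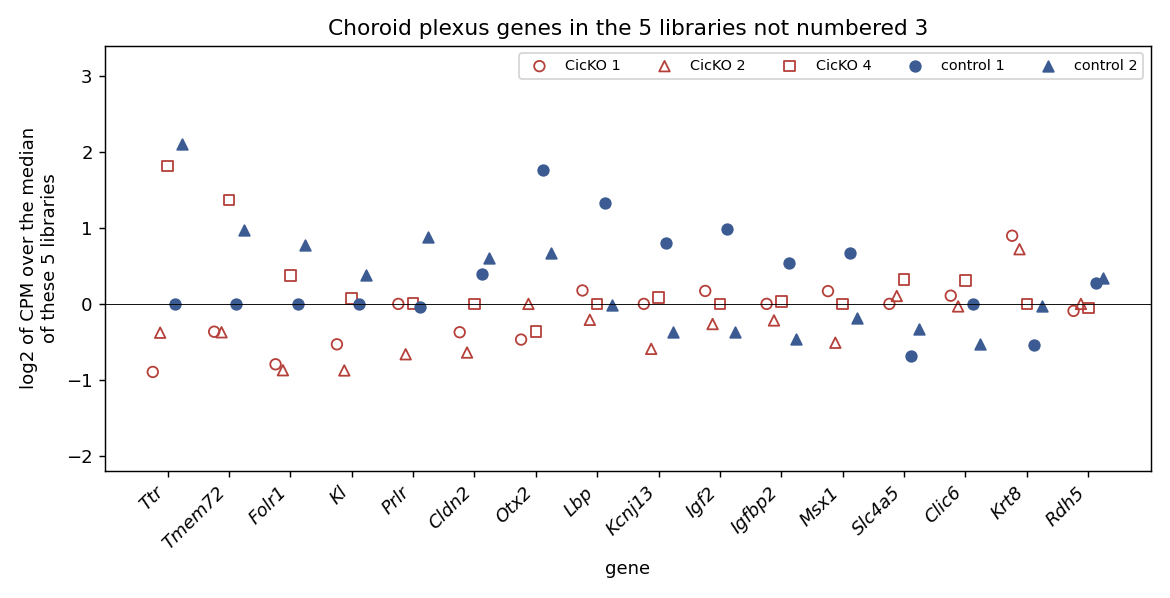
Level of 16 choroid plexus genes in the 5 libraries not numbered 3, as log2 of the CPM over the median of these libraries, CicKO as open red and control as filled blue symbols. CicKO 4 and control 2 are high for Ttr and Tmem72, and control 1 is high for Otx2, Lbp and Igf2.

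Expressed as a percentage of the CicKO 3 level, 9 of the 31 genes stayed under 2% in all of the other 5 libraries. Ttr had 0.173% to 1.39%, Tmem72 0.364% to 1.22% and Kcne2 0.727% to 1.27%. At the other end, 5 genes were above 20% in all 5, and Slc31a1 had 37.2% to 38.6%. Y-linked genes and Xist, the RNA of the inactive X chromosome, give differing scales for levels this small. Ddx3y had 0.709 to 1.31 CPM in CicKO 1, CicKO 2 and control 2, against 76.5 to 97.5 CPM in the other 4 libraries, which is 0.759% to 1.40% of its CicKO 3 level. Both libraries numbered 3 were among the 4 with high Y-linked genes, as were CicKO 4 and control 1. Xist had 1556, 1596, 0.484 and 0.456 CPM in CicKO libraries 1 to 4, against 1.13, 0.822 and 14.7 CPM in controls 1 to 3. Relative to its high libraries, Xist was thus far lower in CicKO 3 and CicKO 4 than Ddx3y was in its low libraries. Whether reads or RNA passed between libraries was not tested.

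Between the genotypes, none of the 31 genes passed the test. In the edgeR quasi-likelihood test over all 7 libraries, 0 of 31 were called higher, against 1.25% of all tested genes (212 of 16905), and 0 were called lower, against 0.828% (140 genes), at an adjusted p under 0.05. DESeq2 and limma-voom also called 0 members, and 0 members had an unadjusted p under 0.05 in edgeR, against 16.2% of all tested genes, or in limma-voom. DESeq2 gave no p-value at all for 20 of the 31, against 0.485% of all tested genes (82 of 16905). Its count of members therefore rests on 11 genes, none of them with an unadjusted p under 0.05. The smallest adjusted p in edgeR was 0.869, for Rdh5. The median log2 fold change of the 31 was 0.13, against -0.0044 over all tested genes, with 26 positive and 5 negative. The standard error was large: its median was 1.79 on the log2 scale, against 0.0920 over all tested genes. For Ttr, the mean was 2033 ± 3982 CPM in CicKO (SD, n = 4) and 1984 ± 3317 CPM in control (SD, n = 3), and the log2 fold change was 0.04 with SE 2.81. A change of several-fold could not have been detected for such a gene at this spread.

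The sign of the fold change depended on which library numbered 3 was in the fit. Without CicKO 3, all 31 log2 fold changes were negative, from -5.57 for Ttr to -0.31 for Spint2. Without control 3, all 31 were positive, from 0.03 for Otx2 to 5.19 for Tmem72. In neither fit was a member called. Leaving out control 1 or control 2 also made all 31 negative, at -0.58 to -0.02 and -0.85 to -0.05.

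**Figure D4:**
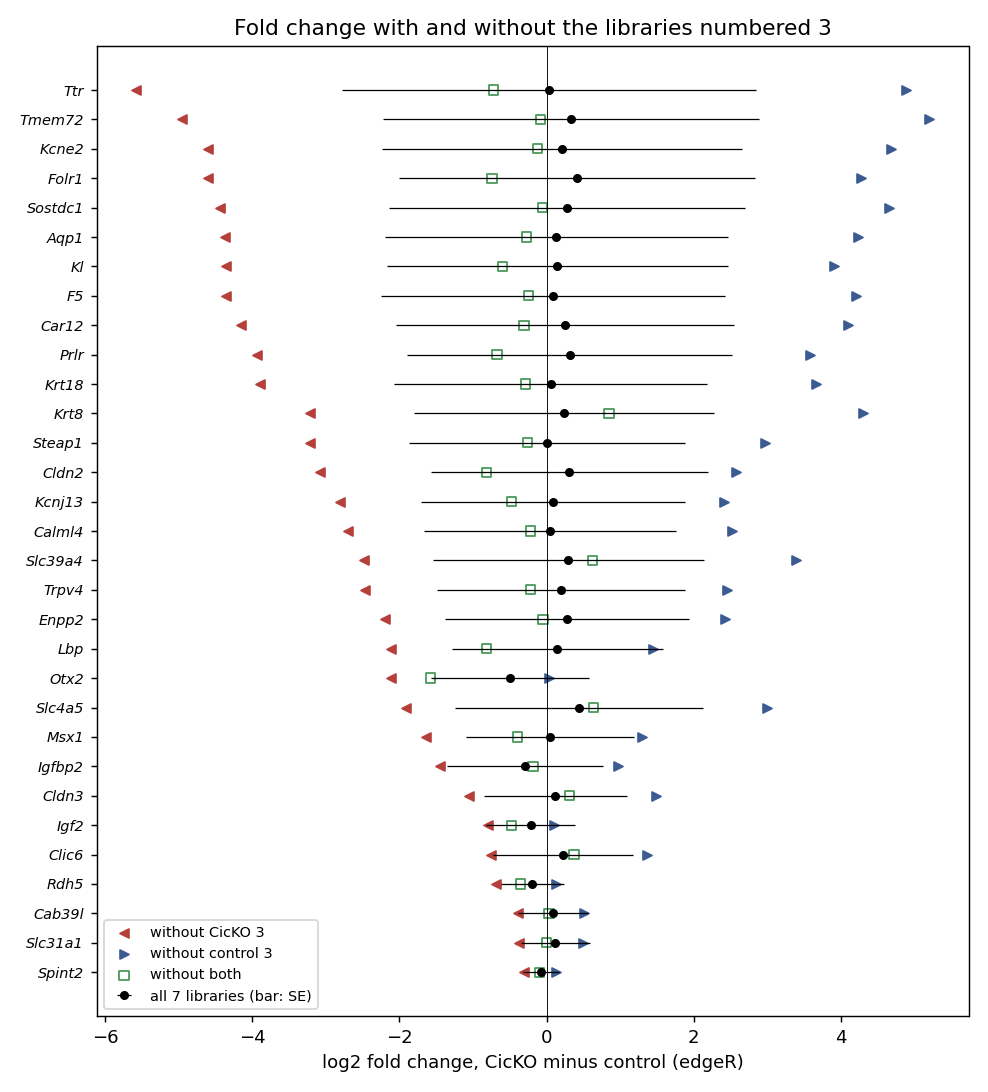
Log2 fold change, CicKO minus control, of each choroid plexus gene by edgeR with all 7 libraries (black, bar 1 SE), without CicKO 3 (red), without control 3 (blue) and without both (green squares). The red and blue triangles lie on opposite sides of 0, from -5.57 to 4.89 for Ttr, and the green squares lie between -1.58 (Otx2) and 0.85 (Krt8).

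With both libraries numbered 3 left out, 3 CicKO libraries stood against 2 controls, and again 0 of the 31 genes were called higher, against 1.52% of 16896 tested genes (256), and 0 were called lower, against 0.864% (146). At an unadjusted p under 0.05 there were 4 of the 31 members, against 15.8% of all tested genes, a share that does not set the members apart. Otx2 had a log2 fold change of -1.58 with SE 0.322 (edgeR adjusted p = 0.0765): CicKO 1, 2 and 4 had 5.01, 6.94 and 5.40 CPM, all under the 23.6 and 11.1 CPM of controls 1 and 2. Rdh5 had -0.36 (adjusted p = 0.0945) and Cldn2 had -0.81 (adjusted p = 0.159), and both were lower in CicKO 1, 2 and 4 than in controls 1 and 2.
Slc4a5 had a log2 fold change of 0.64 with SE 0.176 (adjusted p = 0.129), with 3.17, 3.41 and 3.96 CPM in CicKO 1, 2 and 4 against 1.97 and 2.53 CPM in controls 1 and 2. With the replicate number as a block over all 7 libraries it was the only member called, with 0.65 (edgeR adjusted p = 0.0107). That fit called 310 genes higher and 204 lower over all tested genes, so 1 call does not set the members apart. Its block pairs the libraries numbered 3, which were singled out on these levels, and no control is numbered 4. Without both libraries numbered 3, 6 of the 31 fold changes were positive and 25 negative, with a median of -0.25, against 53.0% negative and a median of -0.01 over all tested genes.

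Genes of other tissues were set beside them. Of 28 further genes of the choroid plexus epithelium, 0 were called between the genotypes by edgeR or DESeq2, which gave no p-value for 7 of them, and 0 had an unadjusted edgeR p under 0.05, while 21 had both libraries numbered 3 above the other 5, and the median ratios were 2.40 in CicKO 3 and 1.87 in control 3. Chosen after their values were seen, the serotonin receptor gene Htr2c had ratios of 45.8 in CicKO 3 and 9.84 in control 3, and the claudin gene Cldn1 had 39.4 in CicKO 3 and 18.7 in control 3.

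Genes of the ependyma, the ciliated lining of the ventricles, were also higher in both libraries numbered 3 than in the other 5, in 10 of 10. Between the genotypes 0 were called by edgeR or DESeq2, and 0 had an unadjusted p under 0.05. Their median ratios were 2.62 in CicKO 3 and 2.53 in control 3. Foxj1, the master factor of motile cilia, had 9.41, 9.31, 19.8 and 6.60 CPM in CicKO libraries 1 to 4, against 9.64, 6.15 and 18.4 CPM in controls 1 to 3. Their part in the choroid plexus values was not tested. Of the other vessel and covering tissues, 0 of 12 leptomeningeal and stromal genes, 1 of 10 endothelial genes and 0 of 7 border macrophage genes had both libraries numbered 3 above the rest. None of these lists had a gene called between the genotypes by edgeR, with 2 endothelial genes at an unadjusted p under 0.05 and 1 endothelial gene called by DESeq2. The 4 haemoglobin genes Hba-a1, Hba-a2, Hbb-bs and Hbb-bt were listed at 0 in all 7 libraries. Why they were at 0 was not tested, and the zeros cannot be read as absence of blood. The erythroid enzyme gene Alas2 was counted in every library, at 2.47 to 4.37 CPM, with ratios of 0.619 in CicKO 3 and 1.08 in control 3.

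The 11 cerebellar genes had median ratios of 0.834 in CicKO 3 and 0.964 in control 3, and CicKO 3 was the lowest of all 7 libraries for 7 of them. No share over all tested genes is at hand to judge this count by. Car8, of Purkinje cells, had 2522, 2269, 1529 and 2536 CPM in CicKO libraries 1 to 4, against 1845, 2296 and 1742 CPM in controls 1 to 3. In this list 1 gene was called lower, against 0.828% of all tested genes. That gene was Gdf10, of Bergmann glia, with 163, 152, 153 and 151 CPM in CicKO libraries 1 to 4 against 242, 215 and 240 CPM in controls 1 to 3. Its log2 fold change was -0.59 (edgeR adjusted p = 0.00256). Of the brainstem neuron list, 6 of 10 genes were tested. By edgeR 1 was called higher, against 1.25% of all tested genes, and 3 had an unadjusted p under 0.05, against 16.2%. By DESeq2 3 were called. The gene called by edgeR was Tph2, of serotonin neurons, with 4.57, 5.07, 1.92 and 4.66 CPM in CicKO libraries 1 to 4 against 0.653, 0.850 and 1.03 CPM in controls 1 to 3 (log2 fold change 2.26, edgeR adjusted p = 0.0227). Tph2 was lowest of the CicKO libraries in CicKO 3, but most of the list was not: CicKO 3 was the highest of all 7 libraries for 4 of the 6 tested genes. This count, too, has no share over all tested genes beside it. The noradrenaline transporter gene Slc6a2 had ratios of 8.11 in CicKO 3 and 4.14 in control 3, Dbh, which makes noradrenaline, had 4.54 and 3.22, and Th, which catecholamine neurons use, had 1.999 and 1.54. For none of the 6 were both libraries numbered 3 above the other 5. The summed level of the list was 50.7, 52.3, 83.3 and 47.2 CPM in CicKO libraries 1 to 4, against 37.9, 24.8 and 41.2 CPM in controls 1 to 3. Most of each sum came from Th and Slc6a5, which is also in the list. Th had 63.3 CPM in CicKO 3 and 29.4 CPM in control 3, and Slc6a5 had 14.2 and 10.2 CPM. The sum therefore says little about the rest of the list, and the part of these genes in the choroid plexus values was not tested.

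Position along the brain was read from 2 short lists. Of 9 hindbrain genes, 3 were tested. Hoxb3 had 0.0295, 0.127, 0.739 and 0.0666 CPM in CicKO libraries 1 to 4, against 0.0979, 0.159 and 0.210 CPM in controls 1 to 3, and both libraries numbered 3 were above the rest. Meis1 had ratios of 0.780 in CicKO 3 and 0.860 in control 3, and Shh 0.869 and 1.05. Of 7 forebrain genes, 3 were tested, and none of those tested had both libraries numbered 3 above the others. The untested forebrain gene Emx1 did have that order. It had 0.0689, 0.0392, 0.273 and 0.0380 CPM in CicKO libraries 1 to 4, against 0.0490, 0.00934 and 0.219 CPM in controls 1 to 3. The other untested genes of both lists did not have it, so the order does not separate hindbrain from forebrain genes here. No gene of either list was called between the genotypes by edgeR or by DESeq2, which gave no adjusted p for 2 of the forebrain genes, with 0 hindbrain and 2 forebrain genes at an unadjusted p under 0.05.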

How the data were processed

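Gene counts were obtained from total RNA of 7 mouse cerebellum libraries, 4 CicKO and 3 control, made with the NuGEN Ovation RNA-Seq System v2, which primes at poly(A) and at random and does not mark strand, per the labels' protocols. For each library the authors deposited a file of unnormalized counts, a line for each gene symbol. The submitters' processing notes name STAR 2.5.3a, HTSeq, DESeq2 and mm10. The 5 summary lines of each file were left out, and reads outside any gene made up 16.0% to 19.0% of a library's total count, summary lines included. No files were identical, and every pair of libraries of a group differed by more than sampling noise.

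Counts were tested with edgeR 4.0.16 (R 4.3.3) by robust quasi-likelihood fits with TMM scaling, filterByExpr and genotype as the only term. P-values were adjusted by the Benjamini-Hochberg method over 16905 genes, with a threshold of 0.05, and standard errors were taken from the log2 fold change and its F statistic. Alternatives were DESeq2 1.42.0, limma-voom 3.58.1, other scalings and filters, the replicate number as a block, and libraries left out. The edgeR step was tested on simulated data. Gene positions are from GENCODE M21. Members and lists were chosen with earlier results of these data known. All members were named, and of each other list up to 3 genes with the smallest adjusted p and up to 3 with the highest mean level.

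Same-numbered CicKO and control libraries deviated together from their group means, with correlations of 0.145, 0.288 and 0.713 across genes for numbers 1, 2 and 3. Several differently numbered pairs did so as well, up to 0.319 for CicKO 1 and control 2, and the labels do not say what the number marks. Some genes of the other lists are not reported here.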

Additional observations from a re-analysis of the deposited data

Results flagged for a closer look

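Within the 4 CicKO libraries, the gap between the highest or lowest library and its nearest neighbour was compared with the whole range of the group. Dixon's 95% critical value for 4 libraries was the limit, and chance alone passes it in about 1 in 20 groups. The share passed was 8.495% over all tested genes, 5.821% with CicKO 3 as the library set apart. Of the 31 choroid plexus genes, 30 passed, each with CicKO 3 as the highest library. Cldn3 did not, at 0.819. CicKO 3 was singled out on these same levels, so the values describe how far it stood from the other CicKO libraries and are no test against chance.

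The gap took nearly the whole range for most of them. It was 0.997 for Aqp1, Sostdc1, 0.996 for Car12, 0.995 for Kcne2, 0.994 for Prlr, 0.993 for Folr1, 0.992 for Krt18, Kl, F5, 0.991 for Tmem72, 0.990 for Ttr, 0.988 for Cldn2, Slc31a1, Trpv4, 0.986 for Krt8, Slc4a5, 0.984 for Enpp2, Calml4, 0.983 for Lbp, Kcnj13, 0.982 for Steap1, 0.966 for Igfbp2, 0.961 for Rdh5, 0.960 for Otx2, 0.951 for Msx1, 0.941 for Clic6, 0.940 for Cab39l, 0.935 for Slc39a4, 0.934 for Spint2, 0.861 for Igf2.

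Of 48 other named genes, 14 passed. CicKO 3 was the highest library, with the gap at 0.862 for Hoxb3, 0.877 for Dynlrb2, 0.837 for Rsph1, 0.836 for Dcn, 0.977 for Th, 0.974 for Crhr2, 0.996 for Prr32, 0.967 for Oca2, 0.997 for Igfn1, 0.985 for Drc7, 0.976 for Gmnc of the range. Crhr2, Prr32, Oca2, Igfn1, Drc7 and Gmnc were named for their high ratios in the libraries numbered 3, so that choice fixed their passing. A low library was set apart in 3 of them: 0.848 for Slco1a4, lowest in CicKO 2, 0.856 for Pf4, lowest in CicKO 2, 0.840 for Tph2, lowest in CicKO 3. No cause was tested for these.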

How the results depend on the processing

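Other scalings (DESeq2 size factors, library size only, TMM without the members) kept the sign of all 31 fold changes and left 0 members called. The DESeq2 test called 678 genes higher and 502 lower over all genes, and 0 of the 11 members for which it gave a p-value. Leaving out each library gave 65 to 493 genes higher and 21 to 349 lower, 0 members called, and a median log2 fold change of the members of -2.69 to 2.57, lowest without CicKO 3 and highest without control 3. The counts over all genes were highest without CicKO 3 and lowest without CicKO 1. Requiring 1 CPM in 3 libraries kept 17 members, all 17 with both libraries numbered 3 above the rest, and median ratios of 16.2 in CicKO 3 and 5.41 in control 3. The replicate block called 1 member higher, Slc4a5, against 310 genes higher and 204 lower over all genes, and changed no other member's call.

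Log2 fold changes of members changed sign as follows, with none past the threshold in either fit. Without a filter on low counts it was Steap1 -0.0021. With the replicate block they were Ttr -0.96, Kl -0.21, Lbp -0.14, Folr1 -0.028, Kcnj13 -0.10, Steap1 -0.0072, Cldn2 -0.22, Msx1 -0.0051. With limma-voom they were Ttr -1.12, Enpp2 -0.16, Kl -0.68, Sostdc1 -0.16, F5 -0.47, Lbp -0.49, Folr1 -0.73, Prlr -0.59, Aqp1 -0.42, Kcnj13 -0.42, Kcne2 -0.33, Trpv4 -0.25, Car12 -0.40, Steap1 -0.41, Cldn2 -0.64, Krt18 -0.46, Msx1 -0.30, Calml4 -0.32, Tmem72 -0.43. Without both libraries numbered 3 they were Ttr -0.72, Enpp2 -0.048, Kl -0.60, Sostdc1 -0.051, F5 -0.25, Lbp -0.82, Folr1 -0.74, Prlr -0.67, Aqp1 -0.27, Kcnj13 -0.47, Kcne2 -0.13, Trpv4 -0.21, Car12 -0.31, Slc31a1 -0.0067, Steap1 -0.25, Cldn2 -0.81, Krt18 -0.28, Msx1 -0.39, Calml4 -0.22, Tmem72 -0.087. Leaving out each library in turn, the log2 fold changes ran from -5.57 to 4.89 for Ttr, -2.201 to 2.43 for Enpp2, -0.79 to 0.10 for Igf2, -1.45 to 0.98 for Igfbp2, -4.36 to 3.91 for Kl, -4.43 to 4.65 for Sostdc1, -4.36 to 4.20 for F5, -2.11 to 1.44 for Lbp, -4.60 to 4.27 for Folr1, -3.94 to 3.58 for Prlr, -4.36 to 4.22 for Aqp1, -2.80 to 2.41 for Kcnj13, -4.60 to 4.68 for Kcne2, -0.76 to 1.36 for Clic6, -2.47 to 2.45 for Trpv4, -1.92 to 2.998 for Slc4a5, -4.15 to 4.09 for Car12, -0.38 to 0.49 for Slc31a1, -2.48 to 3.39 for Slc39a4, -3.21 to 2.96 for Steap1, -3.08 to 2.57 for Cldn2, -1.05 to 1.48 for Cldn3, -3.22 to 4.30 for Krt8, -3.89 to 3.66 for Krt18, -0.31 to 0.13 for Spint2, -2.11 to 0.034 for Otx2, -1.64 to 1.30 for Msx1, -0.68 to 0.13 for Rdh5, -2.69 to 2.52 for Calml4, -0.38 to 0.50 for Cab39l, -4.95 to 5.19 for Tmem72. The cause of these shifts was not tested.

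With 1 high library in each genotype, the spread over libraries limits the genotype comparison more than depth. Depth limits the ratios of Cldn3, Krt8, Krt18 and Tmem72, which had at most 31 counts in each of the other 5 libraries, and intervals of such counts would cover counting error only.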

Other observations

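Outside the fixed lists, genes were ranked by the product of their CicKO 3 and control 3 ratios. Only genes whose level averaged 1 CPM or more across the 7 libraries were ranked. Such a ranking picks the most extreme ratios and does not measure likeness to the choroid plexus genes. Highest was Crhr2, a receptor for urocortins, with ratios of 90.7 in CicKO 3 and 32.3 in control 3. After it came Prr32 with 82.4 and 31.5, the melanosomal transporter gene Oca2 with 33.6 and 32.2, and Igfn1 with 34.1 and 17.1. The ciliary gene Drc7 had 29.97 and 13.9, and Gmnc, a regulator of multiciliated cells, had 18.2 and 17.7. Crhr2, Prr32, Oca2, Igfn1 and Gmnc were under 1 CPM in every library not numbered 3, so they were ranked only through the libraries numbered 3. Crhr2 had 0.0492, 0.0196, 4.47 and 0.133 CPM in CicKO libraries 1 to 4, against 0.0571, 0.140 and 3.18 CPM in controls 1 to 3. Drc7 had 0.679, 1.02, 23.4 and 0.780 CPM in CicKO libraries, against 1.52, 0.822 and 16.2 CPM in controls.

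Among all tested genes, 45 were at least 10-fold above the others of their genotype in both libraries numbered 3. Of these, 20 were choroid plexus members, which is 44.4% of the 45 genes and 64.5% of the 31 members, and 4 were of the further choroid plexus list. Xist, the RNA of the inactive X chromosome, had 1556 and 1596 CPM in CicKO 1 and CicKO 2, against 0.456 to 14.7 CPM in the other 5 libraries. Control 2 had neither Xist, at 0.822 CPM, nor Y-linked genes at the level of the others, with Ddx3y at 1.31 CPM.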
